A study of Homo sapiens with 12 samples.

Results

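SAMD11 lies near the start of the short arm of chromosome 1, in a run of closely spaced genes that also holds LINC02593, NOC2L, KLHL17, PLEKHN1 and HES4. These 6 genes, of 62262 in the count table, are described here across 4 treatments of a human podocyte line, with the question of whether the difference seen in tacrolimus-treated cells was confined to SAMD11 and LINC02593. SAMD11 and LINC02593 were chosen on their difference between tacrolimus and control in these same libraries, so that difference is a description here and carries no test. The other 4 genes were chosen by their position beside SAMD11. All 6 passed the filter on low counts and were among the 19784 genes tested.

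The cells were podocytes, the epithelial cells that wrap the glomerular capillaries, from a conditionally immortalized human line that carries a temperature-sensitive SV40-T gene in every group. They were differentiated at the temperature that inactivates T antigen. For 24 h the control group then received DMSO, and the other 3 groups 100 nM of tacrolimus (TAC), of cyclosporine A (CSA) or of voclosporin (VCS), with 3 libraries of poly(A) RNA each. All groups come from the same line, and no source used here says whether the 3 replicates were separate cultures, so p-values measure only the spread between these libraries.

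The 3 drugs inhibit calcineurin, the calcium-activated phosphatase that lets NFAT transcription factors enter the nucleus. CSA and VCS, a structural analog of CSA, act as complexes with cyclophilin, while TAC is a macrolide that acts as a complex with an FKBP immunophilin. The genes of the locus do unrelated work. SAMD11 encodes a protein with a SAM domain, a module through which proteins polymerize, and is known in the retina, where it acts with its relative SAMD7 in Polycomb repression of genes in photoreceptors. LINC02593 is a long noncoding RNA. NOC2L is a nucleolar protein of ribosome assembly that also inhibits histone acetyltransferases, KLHL17 is an actin-binding Kelch protein that serves as an adaptor of the cullin 3 ubiquitin ligase, PLEKHN1 is a phospholipid-binding protein with pleckstrin homology domains, and HES4 is a helix-loop-helix repressor of the Notch pathway.

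Library totals ran from 28808213 to 36077072 counts. The sum of 14 podocyte markers was between 5257 and 5903 CPM (counts scaled to library size, as edgeR gives them) in all 12 libraries. NPHS1, which encodes the slit diaphragm protein nephrin and is a defining podocyte marker, was nearly absent, at 1 to 11 counts a library. Of 6 photoreceptor markers, 5 had no more than 10 counts in any library, and SAMD7 had 0 or 1. Mitochondrial transcripts took 9.68 to 13.4% of counts in the library numbered 3 of each group and 5.82 to 8.12% in the others.

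On the GRCh38 genome with GENCODE 29, LINC02593 (ENSG00000223764) occupies chromosome 1 from 916865 to 921016 on the minus strand. SAMD11 (ENSG00000187634) follows from 923928 to 944581 on the plus strand. The 2 genes point away from each other, with annotated starts 2912 bases apart. SAMD11 has 17 annotated transcripts, of which 8 share a start at 925741. NOC2L (ENSG00000188976, 944204 to 959309, minus strand) meets SAMD11 tail to tail, and the exons of the pair share 378 bases. KLHL17 (ENSG00000187961, 960587 to 965715) and PLEKHN1 (ENSG00000187583, 966497 to 975865) lie on the plus strand. HES4 (ENSG00000188290, 998962 to 1000172) lies on the minus strand at the far end.

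The promoters of SAMD11 and LINC02593 are shown because these are the genes whose levels differed in TAC. Each runs from 250 bases before to 50 bases after the RefSeq start on GRCh38.p14. SAMD11 is read from chr1:925481-925780 on the plus strand and LINC02593 from chr1:919643-919942 on the minus strand. Capitals mark the matches to the motifs searched, which are GGCGCC in SAMD11 and CAGAC, here as its reverse complement GTCTG, in LINC02593.
SAMD11: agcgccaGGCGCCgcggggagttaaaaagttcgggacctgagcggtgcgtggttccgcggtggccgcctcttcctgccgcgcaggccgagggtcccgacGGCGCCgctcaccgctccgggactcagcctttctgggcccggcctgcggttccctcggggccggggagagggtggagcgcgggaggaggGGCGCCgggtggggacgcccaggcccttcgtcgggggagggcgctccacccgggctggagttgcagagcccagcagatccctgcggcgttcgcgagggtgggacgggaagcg
LINC02593: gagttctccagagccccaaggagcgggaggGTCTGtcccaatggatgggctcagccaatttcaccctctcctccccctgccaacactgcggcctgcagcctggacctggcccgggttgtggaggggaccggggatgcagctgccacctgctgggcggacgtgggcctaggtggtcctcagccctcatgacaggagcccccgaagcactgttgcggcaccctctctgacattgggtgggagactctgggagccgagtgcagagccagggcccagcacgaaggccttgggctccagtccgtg

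The SAMD11 promoter has a GC content of 75% and a ratio of observed to expected CpG of 0.923, against medians of 58.3% and 0.58 over 27305 RefSeq promoters. The LINC02593 promoter has a GC content of 66.7% and a CpG ratio of 0.33, so only the SAMD11 window of the pair lies above the median in CpG ratio. The RefSeq starts of the 2 genes are 6039 bases apart, and their windows share no sequence. Both strands were searched for GGAAAA (the NFAT core), GGCGCC (the GC-rich SMAD1/5 element), CAGAC (the SMAD element), CACGTG (the E-box) and CACGCG (the class C element that HES proteins bind). These motifs do not contain one another. GGCGCC occurs 3 times in the SAMD11 window, which 0.872% of promoters match or exceed, a cutoff chosen after the count was seen. At least 1 match is held by 19% of promoters. Both shares are over promoters of any GC content. The motif is all G and C, and its share among windows as GC-rich as that of SAMD11 was not counted. GGCGCC occurs 0 times in the LINC02593 window, and once each in those of NOC2L and KLHL17. CAGAC, present in 45% of promoters, occurs once in LINC02593 and KLHL17, 2 times in PLEKHN1, and not in the SAMD11 window. GGAAAA, present in 24.3% of promoters, and CACGTG, present in 7.43%, match none of the 6 windows. CACGCG, present in 11.4%, matches NOC2L alone. A match describes letters and not binding.

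SAMD11 and LINC02593 had higher levels in TAC than in any other group, at 5.66 ± 0.117 CPM against 1.99 ± 0.15 in DMSO and at 3.00 ± 0.134 CPM against 0.934 ± 0.169 (SD, n = 3). Both differed in the same direction, whereas the 4 genes on the other side of SAMD11 did not pass the test in any comparison. The level of SAMD11 was 1.82, 2.12 and 2.01 CPM in the DMSO libraries numbered 1, 2 and 3. It was 5.56, 5.79 and 5.62 CPM in TAC. In CSA it was 2.15, 1.31 and 1.80 CPM, and in VCS 1.86, 1.67 and 1.47 CPM. Every TAC library lay far above all 9 others, and the DMSO, CSA and VCS libraries overlapped. The counts behind these levels were 60, 69 and 61 in DMSO, 184, 195 and 183 in TAC, 73, 41 and 62 in CSA, and 58, 55 and 41 in VCS. In bulk RNA, more cells expressing a gene and more RNA per cell cannot be told apart.

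LINC02593 was at 0.791, 0.892 and 1.12 CPM in DMSO. It was at 3.05, 2.85 and 3.10 CPM in TAC, 0.941, 0.987 and 0.985 CPM in CSA, and 1.02, 0.818 and 0.608 CPM in VCS. As for SAMD11, all 3 TAC libraries were above the 9 others and the remaining groups overlapped. These levels rest on few reads: summed over 3 libraries they were 298 counts in TAC, 89 in DMSO, 97 in CSA and 76 in VCS. Of all genes tested, 184 (0.93%) had all 3 TAC libraries above the 9 others, and 2 of the 6 genes did. The 2 are those that the choice of members fixed.

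**Figure D1:**
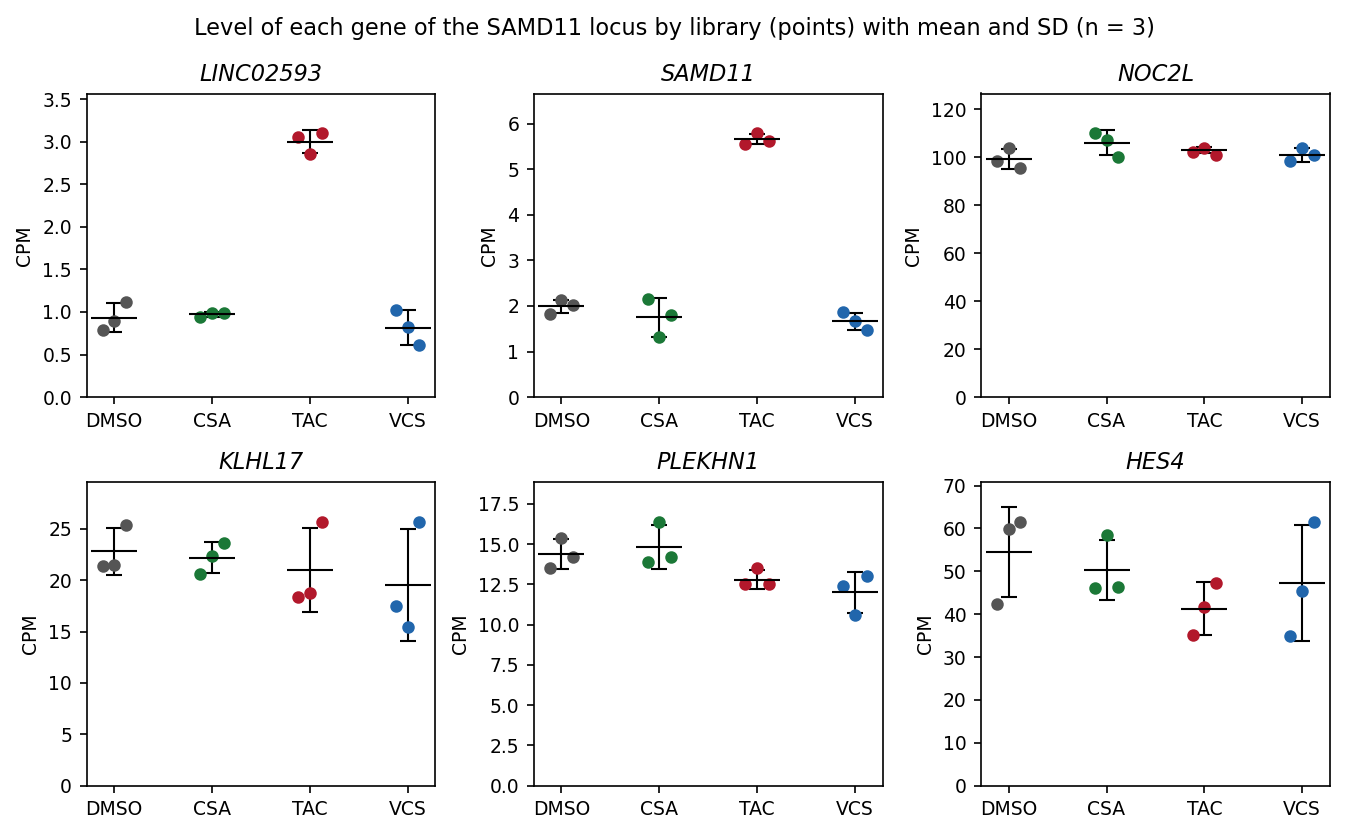
Level in CPM (vertical axes, from 0) of each of the 6 genes in the DMSO, CSA, TAC and VCS libraries (points, numbered 1 to 3 from left to right), with the mean (dash) and the SD over 3 libraries (bars). The TAC points of SAMD11 (5.56 to 5.79 CPM) and LINC02593 (2.85 to 3.10 CPM) stand above all others, and the groups overlap for NOC2L, KLHL17 and HES4.

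In the fit over all 12 libraries with edgeR's quasi-likelihood model, the TAC level of SAMD11 was 2.85 times that of DMSO, with a 95% interval of 2.13 to 3.80. On the log2 scale the difference was 1.51 (SE 0.19). LINC02593 was at 3.21 times its DMSO level (2.28 to 4.51; log2 difference 1.68, SE 0.23). These were 2 of the 7 genes called in this comparison at an adjusted p under 0.05, 0.0354% of those tested, which is how they came to be described. With the replicate number as a block, 41 genes were called and both were still among them. By size rather than p, 51 genes had a larger log2 difference than SAMD11 and 35 a larger one than LINC02593. SAMD11 differed by 1.58, 1.42 and 1.46 (log2 CPM) between the TAC and DMSO libraries of the same number, and LINC02593 by 1.87, 1.61 and 1.42. Their calls needed all 3 libraries of DMSO and TAC: leaving out any of these 6 ended both, with adjusted p in edgeR's test up to 0.107 for SAMD11 and 0.181 for LINC02593, while the log2 differences stayed within 1.45 to 1.57 and 1.58 to 1.83. Without the 4 libraries numbered 3 the differences were 1.52 and 1.80, and neither was called (edgeR adjusted p of 0.155 and 0.116).

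The other comparisons with TAC gave differences of like size. Against CSA, the log2 difference was 1.69 (SE 0.19) for SAMD11 and 1.62 (SE 0.23) for LINC02593. There 6 genes, 0.0303% of those tested, were called. Against VCS, it was 1.76 (SE 0.20) and 1.87 (SE 0.23), with 5 genes, or 0.0253%, called (41 with the block). Both genes were among those called each time. With only the 2 groups compared neither was called in either comparison. Leaving out 1 library kept the call against CSA in 7 of 12 fits for SAMD11 and 5 of 12 for LINC02593, and against VCS in 10 and 8 of 12, with edgeR adjusted p up to 0.0977 and 0.239 against CSA. DESeq2 gave neither gene an adjusted p against CSA. All 3 of these comparisons use the same TAC libraries, so they are not separate evidence.

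In CSA and VCS both genes were near their DMSO levels. CSA differed from DMSO by -0.18 (SE 0.20, 95% interval -0.61 to 0.25) for SAMD11 and by 0.06 (SE 0.24, -0.45 to 0.57) for LINC02593, on the log2 scale. VCS differed by -0.25 (SE 0.20, -0.68 to 0.18) and -0.19 (SE 0.24, -0.71 to 0.34). CSA and TAC share the DMSO libraries in these comparisons, as does VCS. In edgeR's test 0 of the 6 genes were called in CSA, where 2 genes (0.0101%) were called in all and 6 with the block, and 0 of 6 in VCS, where 1 gene (0.00505%) was. DESeq2 likewise called 0 of the 6 in either. In the edgeR fit without the block, 0 of 6 had an unadjusted p under 0.05 for CSA, against 741 of all 19784 genes. For VCS it was 1 of 6, PLEKHN1, against 647 of all genes.

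The comparison of VCS with CSA sets no TAC or DMSO level against another and is the test of SAMD11 and LINC02593 here that depends least on how they were chosen. The TAC and DMSO libraries enter it through the estimate of the spread and the scaling. These compounds are structural analogs at the same dose and time. SAMD11 differed by -0.07 (SE 0.20, 95% interval -0.51 to 0.36, edgeR adjusted p = 1) and LINC02593 by -0.24 (SE 0.24, -0.76 to 0.27, edgeR adjusted p = 1). Differences within these intervals are not settled by 3 libraries a group. Fitted on the CSA and VCS libraries alone, the differences were -0.07 (SE 0.28) and -0.25 (SE 0.32), again with edgeR adjusted p of 1. For SAMD11 the sign turned without CSA replicate 1 (0.10) or VCS replicate 3 (0.01). In this comparison edgeR called 2 genes, 0.0101% of those tested, and 0 of the 6, as did DESeq2 for the 6. Of the 6, 1 gene, PLEKHN1, had an unadjusted p under 0.05 with either tool. In edgeR's test 503 of all 19784 genes did. The other 5 pairs of treatments are given above and below, each adjusted over all genes tested.

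SAMD11 and LINC02593 kept a similar proportion to each other. The ratio of SAMD11 to LINC02593 counts was 2.31, 2.38 and 1.79 in DMSO, 1.82, 2.03 and 1.81 in TAC, 2.28, 1.32 and 1.82 in CSA, and 1.81, 2.04 and 2.41 in VCS. The ratios of the 4 groups overlapped. Scaled to exon length, SAMD11 was at 0.477 ± 0.0361 CPM per kb and LINC02593 at 0.225 ± 0.0408 in DMSO (SD, n = 3).

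NOC2L, which overlaps the end of SAMD11, was level in all groups. It was at 98.4, 104 and 95.3 CPM in DMSO, 102, 104 and 101 in TAC, 110, 107 and 100 in CSA, and 98.3, 104 and 101 in VCS. The log2 difference between TAC and DMSO was 0.05 (SE 0.08, 95% interval -0.12 to 0.21, edgeR adjusted p = 0.931). This is the most tightly measured gene of the locus: TAC levels above 1.16 or below 0.922 times that of DMSO lie outside its 95% interval. No source states whether strand was used in counting, so reads in the 378 shared bases cannot be assigned with certainty. SAMD11 counts equalled 1.85, 2.04 and 2.11% of NOC2L counts in DMSO and 5.43, 5.57 and 5.55% in TAC. NOC2L itself did not move with SAMD11 between the groups. Of the 31-base words in the SAMD11 transcripts, 7.84% also occur in another gene, and all of these occur in NOC2L. For NOC2L the share was 26.2%, mostly in its pseudogenes NOC2LP1 and NOC2LP2, so its level is less certain than its spread. LINC02593, KLHL17 and HES4 share none with other genes, and PLEKHN1 shares 4.37% with PERM1.

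**Figure D2:**
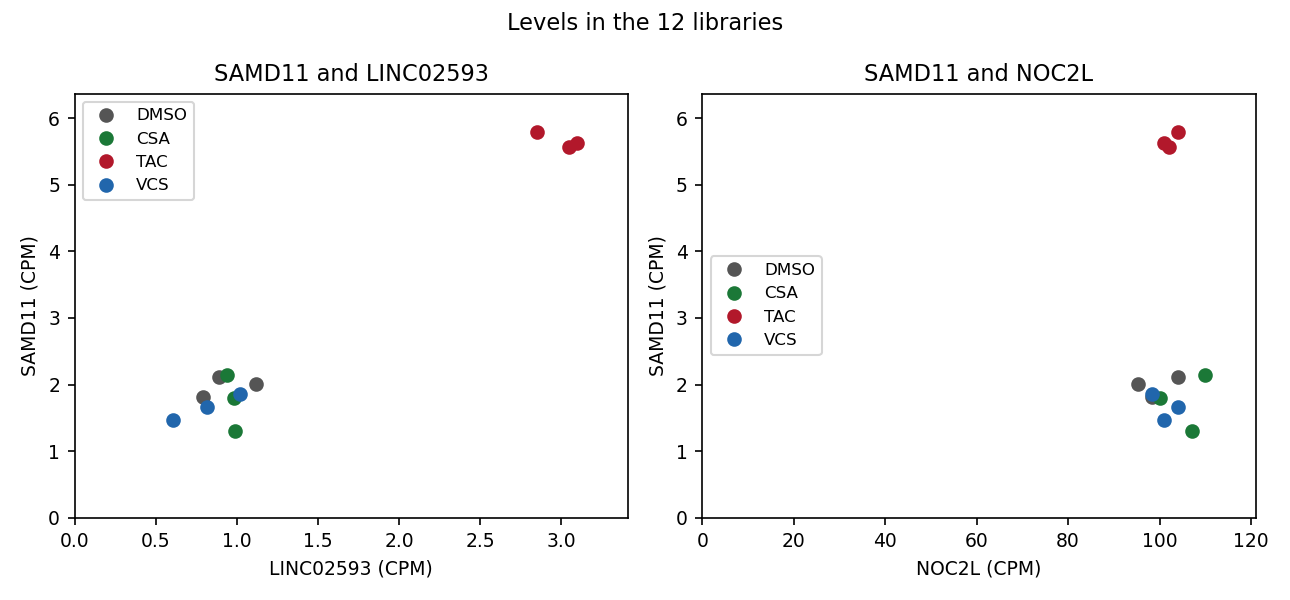
Level of SAMD11 (vertical axes, CPM) against that of LINC02593 (left) and NOC2L (right, horizontal axes in CPM) in the 12 libraries, coloured by treatment. On the left the 3 TAC libraries lie apart at the upper right; on the right they lie higher only on the SAMD11 axis, with NOC2L between 101 and 104 CPM.

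KLHL17 was at 21.4, 21.5 and 25.4 CPM in DMSO, 18.4, 18.8 and 25.7 in TAC, 20.6, 22.4 and 23.6 in CSA, and 17.5, 15.4 and 25.7 in VCS. The library numbered 3 was the highest in every group, and the groups overlapped. KLHL17 differed between TAC and DMSO by -0.12 on the log2 scale (SE 0.18, 95% interval -0.50 to 0.26, edgeR adjusted p = 0.931). With the replicate number as a block it was -0.13 (SE 0.10, -0.36 to 0.10). Between VCS and DMSO it was -0.22 (SE 0.18, -0.61 to 0.16), and with the block -0.24 (SE 0.10, -0.47 to -0.01). The latter had an unadjusted p of 0.0388 and an adjusted p of 0.431 in edgeR's test, so KLHL17 was not called. Without the 4 libraries numbered 3, which also had the highest mitochondrial shares, the log2 differences from DMSO were -0.21 (SE 0.10) in TAC and -0.38 (SE 0.10) in VCS, with adjusted p in edgeR's test of 0.567 and 0.308. The part of the mitochondrial share in this was not tested.

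PLEKHN1, which begins just beyond KLHL17, was at 13.5, 15.4 and 14.2 CPM in DMSO, 12.5, 13.5 and 12.5 in TAC, 13.9, 16.4 and 14.2 in CSA, and 12.4, 10.6 and 13.0 in VCS. All 3 VCS libraries lay below the 3 of DMSO and the 3 of CSA, and all 3 TAC libraries below the 3 of CSA. Such an order was found for 4.16% of all genes in VCS against DMSO, 3.04% in VCS against CSA and 6.84% in TAC against CSA. The log2 difference was -0.26 (SE 0.11, 95% interval -0.50 to -0.02) between VCS and DMSO and -0.30 (SE 0.11, -0.54 to -0.06) between VCS and CSA. The unadjusted p-values in edgeR's model were 0.0347 and 0.017, and the adjusted p-values 0.963 and 1, so PLEKHN1 was not called. Between TAC and DMSO it differed by -0.16 (SE 0.11, -0.40 to 0.07, edgeR adjusted p = 0.92).

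HES4, the repressor, differed between libraries of the same group. It was at 42.4, 59.8 and 61.5 CPM in DMSO, 35.1, 41.6 and 47.3 in TAC, 46.0, 58.4 and 46.3 in CSA, and 34.8, 45.4 and 61.6 in VCS. The groups overlapped, and the library numbered 1 was the lowest in each. Within each number the TAC library was below that of DMSO, by -0.27, -0.52 and -0.38 (log2 CPM). The fitted difference was -0.40 (SE 0.20, 95% interval -0.83 to 0.03, edgeR unadjusted p = 0.0643, adjusted p = 0.92). With the replicate number as a block it was -0.39 (SE 0.13, -0.67 to -0.12), with an unadjusted p of 0.00849 and an adjusted p of 0.25 in edgeR's test. HES4 was therefore not called, and a fall to 0.563 times the DMSO level lies at the edge of its interval.

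In TAC against DMSO, edgeR called 0 of the 4 genes chosen by position, DESeq2 called 0, and 0 had an unadjusted p under 0.05 with either tool in the fit without the block; with it, HES4 did. The upper bounds of their 95% intervals were at most 0.26 on the log2 scale. Per kb of exon in DMSO the order of levels was HES4 (48.8 ± 9.41 CPM per kb), NOC2L (17.9 ± 0.776), KLHL17 (6.70 ± 0.678), PLEKHN1 (5.08 ± 0.329), SAMD11 and LINC02593 (SD, n = 3), with no overlap between neighbours in that order. The genes of the locus that differed in TAC were thus those with the lowest levels.

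Besides the 6 genes, no tested gene of the wider region was called. Within 500 kb of the SAMD11 start, GENCODE 29 has 86 genes in the table, of which 48 were tested, 42 of them besides the 6. Of these 42, edgeR called 0 in TAC against DMSO, as did DESeq2 and the fit with the block, while 3 of the 42 had an unadjusted p under 0.05, against 919 of the 19784 genes tested. All 3 had lower values in TAC: ENSG00000242590, an intronic transcript with 1.00 ± 0.205 CPM in DMSO and 0.292 ± 0.174 in TAC (SD, n = 3), C1QTNF12, a secreted C1q-related protein (log2 difference -0.79, SE 0.30), and SCNN1D, an epithelial sodium channel subunit (-0.45, SE 0.19). DVL1, a Wnt signal transducer, followed at -0.18 (SE 0.09). The adjusted p of these 4 was 0.92 in edgeR's test.

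Of the 42 genes, 35 had values below 0 and 7 above in TAC against DMSO, with a median log2 difference of -0.15, where the median of all genes was -0.00. In CSA 21 lay on each side (median 0.01), and in VCS 19 lay above and 23 below (median -0.05). Against DMSO the tilt to lower values was largest in TAC. In TAC against CSA 11 lay above 0 and 31 below (median -0.14), and 0 were called. In edgeR's test 6 of the 42 had an unadjusted p under 0.05 there, against 1488 of all 19784 genes. In TAC against VCS 15 lay above 0 and 27 below (median -0.06). A tilt was not confined to comparisons with TAC: in VCS against CSA 9 lay above 0 and 33 below (median -0.10). Of all genes tested, 179 had every TAC library below the 9 others, and SDF4 of this region was among them. The genes next to the 6 were not called: FAM41C, a noncoding RNA gene on the LINC02593 side, was at 0.62 (SE 0.41) on 0.366 CPM, and beyond PLEKHN1 came PERM1 at -0.04 (SE 0.47), ISG15, an interferon-induced ubiquitin-like protein, at -0.12 (SE 0.20), and AGRN, a basement membrane proteoglycan, at -0.14 (SE 0.13). No tested gene of the region besides SAMD11 and LINC02593 had a log2 difference above 0.62. Genes too low to test, such as ENSG00000230699 with 0 to 9 counts a library, do not bear on this.

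**Figure D3:**
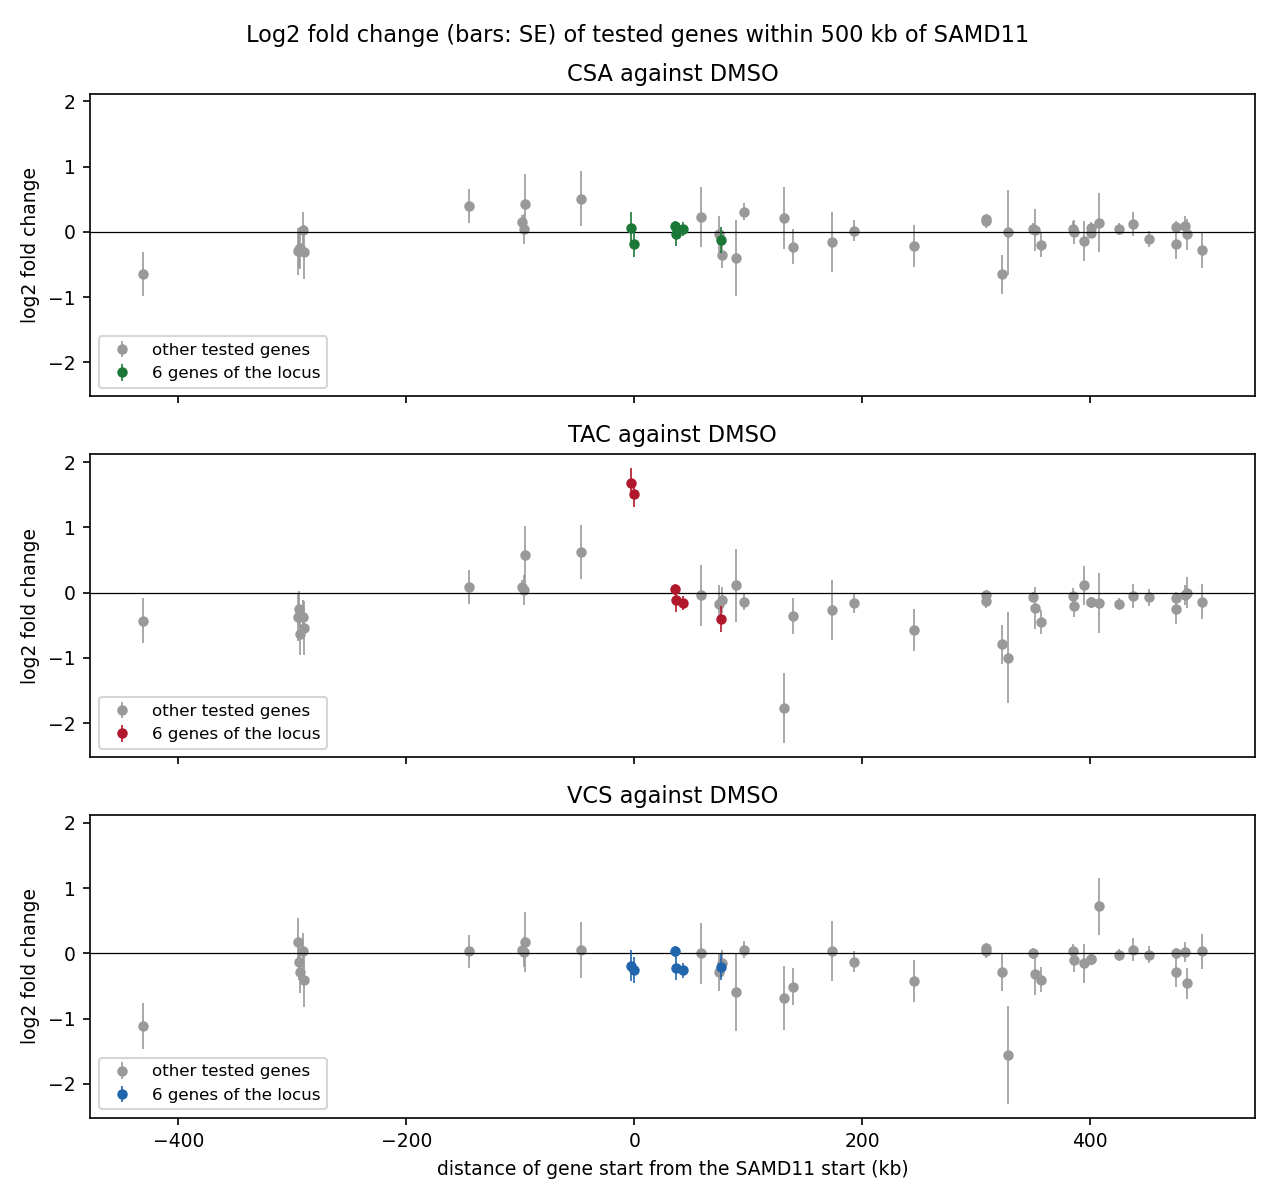
Log2 fold change against DMSO (vertical axis, bars are SE) of the 48 tested genes by distance of their start from that of SAMD11 (horizontal axis, kb), for CSA, TAC and VCS from top to bottom. In the TAC panel SAMD11 (1.51) and LINC02593 (1.68) stand alone above 0.62; no gene stands out in this way near 0 kb in the other panels.

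Because LINC02593 and SAMD11 point away from each other, they were set beside other adjacent tested genes in this layout with starts no more than 10 kb apart, of which there were 1664 pairs. In TAC against DMSO only 2 pairs had both genes above 1 on the log2 scale. They were LINC02593 with SAMD11, and ENSG00000267335 with CGB5, a chorionic gonadotropin beta subunit gene, at 1.62 and 1.08 with starts 6989 bases apart. The latter pair was named after its values were seen, rests on 0.683 and 0.894 CPM, and belongs to a family of near-identical copies whose reads are hard to assign. In 11 further pairs 1 gene alone was above 1. Ranked by the lower value of each pair, LINC02593 and SAMD11 had rank 1 in TAC, rank 1100 in CSA and rank 1256 in VCS. Their place in TAC follows from how they were chosen and is a description. Over all 1664 pairs the log2 differences of the partners had a Pearson correlation of 0.060 and a Spearman correlation of 0.180, across gene pairs measured in the same libraries. Adjacent genes pointing toward each other had a Pearson correlation of 0.094 and a Spearman correlation of 0.181. Those on the same strand had -0.003 and 0.165. In this comparison, with 7 genes called, adjacent genes thus moved together little in any layout.

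**Figure D4:**
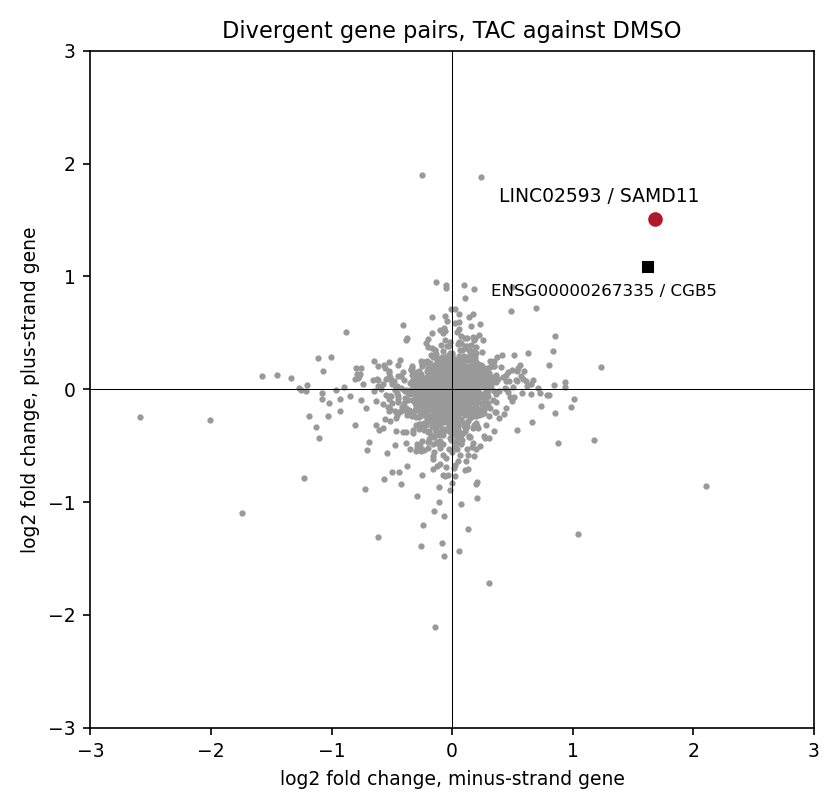
Log2 fold change in TAC against DMSO of the plus-strand gene (vertical axis) and the minus-strand gene (horizontal axis) of divergent pairs with starts within 10 kb; 1658 of 1664 pairs fall inside the axes, which end at 3 on either side. LINC02593 with SAMD11 (1.68, 1.51) and ENSG00000267335 with CGB5 (1.62, 1.08) lie at the upper right, away from the cloud around 0.

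Across the 12 libraries, the gene whose log2 CPM was most like that of SAMD11, among 19783 others, was LINC02593 (Pearson r = 0.956, Spearman rho = 0.664). The libraries form 2 clusters, TAC and the rest, and the likeness rests on that: over the 9 libraries without TAC the r was 0.37, and after removing each group's mean it was 0.33. The 4 neighbours were at 0.038 (NOC2L), -0.088 (KLHL17), -0.242 (PLEKHN1) and -0.467 (HES4). In all, 13 genes had an r over 0.9. The same group means shape all of these values, so they describe the pattern and are not tests.

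The 8 genes most like SAMD11 after LINC02593, with a mean log2 CPM of at least 0, were CENPE (0.936), ID3 (0.934), SMAD9 (0.933), SPDL1 (0.932), SMAD6 (0.930), ID1 (0.928), ZNF440 (0.922) and RPAP3 (0.914). None is on the SAMD11 segment of chromosome 1. ID1 and ID3 are helix-loop-helix repressors induced by BMP, SMAD9 is a BMP-responsive SMAD and SMAD6 an inhibitory SMAD of that pathway. ID1 went from 39.6 ± 5.64 CPM in DMSO to 91.1 ± 3.86 in TAC and ID3 from 93.4 ± 4.79 to 139 ± 11.6 (SD, n = 3). SMAD9 was at 6.49 ± 0.595 and 11.6 ± 1.67 CPM, and SMAD6 at 10.3 ± 0.72 and 15.8 ± 0.813. CENPE and SPDL1, which serve the kinetochore, were at 48.7 ± 3.42 and 63.1 ± 3.35 CPM and at 90.9 ± 5.9 and 112 ± 1.78. The log2 difference between TAC and DMSO was 1.20 (SE 0.18) for ID1 and 0.58 (SE 0.09) for ID3. Since all 8 were chosen for a pattern that sets TAC apart, these differences are a description. GGCGCC, which occurs 3 times in the SAMD11 window, occurs once in that of ZNF440 and not in those of the other genes among the 8. CAGAC occurs once each in ID3, SMAD9, SPDL1 and ZNF440, as it does in LINC02593. GGAAAA occurs once in ID1 and CENPE and 2 times in SPDL1, and CACGTG once in CENPE and SMAD9. CACGCG matches none of the 8. Sequence outside these windows was not searched.

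**Figure D5:**
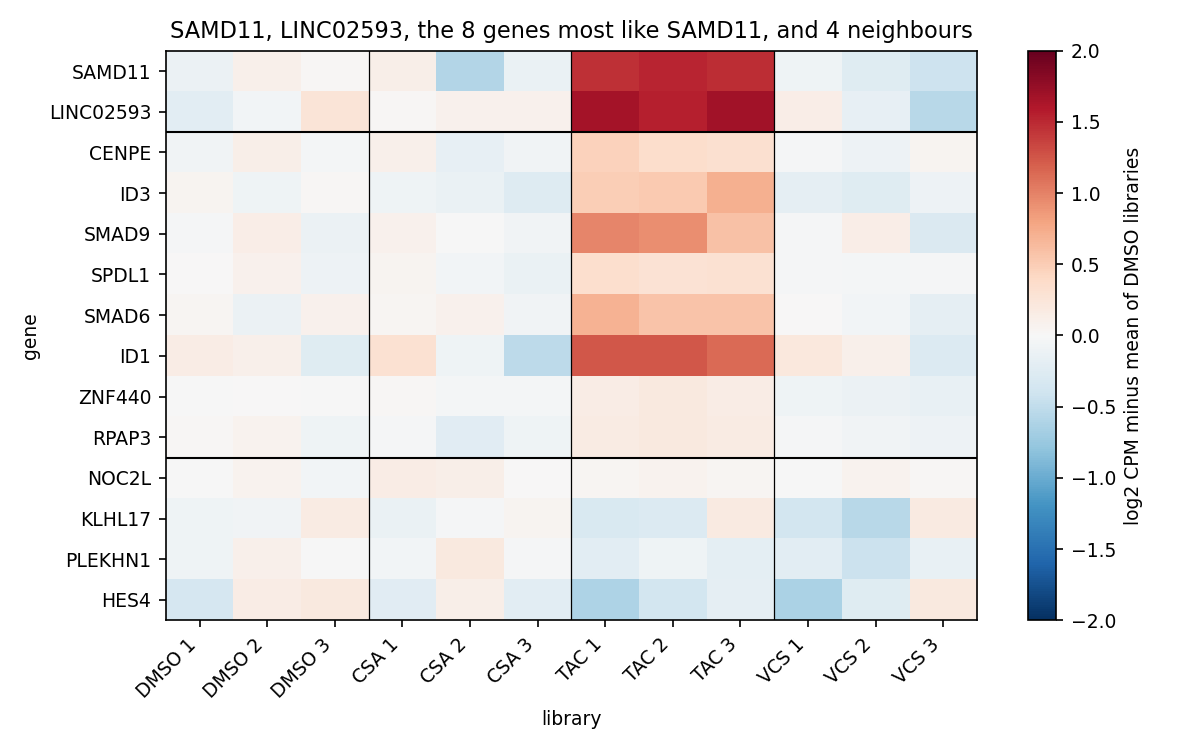
Log2 CPM minus the mean of the DMSO libraries (colour) of SAMD11 and LINC02593 (top), the 8 genes most like SAMD11 (middle) and the 4 other genes of the locus (bottom) in the 12 libraries (columns). The 3 TAC columns are raised for the upper 10 genes, from ZNF440 (10.9 to 12.2 CPM) to LINC02593 (0.934 to 3.00 CPM), and not for NOC2L, KLHL17, PLEKHN1 or HES4.

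Genes that work with the proteins of the locus were read from lists. Of 29 tested Polycomb and SAM domain partners, the setting in which SAMD11 is known, edgeR called 0 in TAC against DMSO (0 at an unadjusted p under 0.05); 17 lay above 0 and 12 below, with a median of 0.05. SUZ12, a core subunit of the methyltransferase complex, was at 0.18 (SE 0.10), L3MBTL3, a SAM domain protein, at 0.26 (SE 0.16), and BMI1 at 0.14 (SE 0.10). Of 18 nucleolar partners of NOC2L, 0 were called and 0 had an unadjusted p under 0.05 (13 above 0, median 0.08); NOC3L and the histone chaperone NPM1 were at 0.23 (SE 0.13) and 0.17 (SE 0.11), and RRP1B at 0.17 (SE 0.11). Of 22 KLHL and cullin 3 genes, 0 were called and 1 had an unadjusted p under 0.05 (15 above 0, median 0.06). That was KLHL21, a mitotic adaptor, at 0.25 (SE 0.11), followed by KLHL15 at 0.33 (SE 0.20) and CUL3 itself at 0.14 (SE 0.08). These medians stand beside a median of -0.00 over all genes. The counts under 0.05 stand beside 919 of all 19784 genes in edgeR's test.

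Of 18 tested HES, HEY and Notch genes other than HES4, 0 were called in TAC against DMSO, with 9 on each side of 0 and a median of -0.02. Before adjustment 2 of the 18 were under 0.05 in edgeR's test, against 919 of all 19784 genes. DLL3, an inhibitory Notch ligand, was at -0.52 (SE 0.21), HES2 at -0.42 (SE 0.19), and LFNG, a glycosyltransferase that modifies Notch, at 0.23 (SE 0.11). DESeq2 and the fit with the block called 0 genes of these 4 lists. The list of BMP and SMAD targets differed: 13 of 15 lay above 0 in TAC, with a median of 0.55, and ID1 was called (6 genes with the block, 5 by DESeq2). Over all genes these fits called 7, 41 and 34. In CSA its median was -0.00 and in VCS -0.05, with 0 called by either tool. In edgeR's test 0 and 1 of the 15 had an unadjusted p under 0.05, against 741 and 647 of all genes. This list was written with its behaviour in these libraries already known, so it gives no independent support.

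Markers of other cell types were read beside the TAC difference. Of 10 liver markers, 9 had all 3 TAC libraries above the 3 of DMSO, and their sum was 377 to 438 CPM in TAC and 197 to 265 in DMSO. It was as high in VCS replicate 1 (420) and CSA replicate 2 (417), where SAMD11 was at 1.86 and 1.31 CPM. Of 11 airway markers, 5 had all TAC libraries below DMSO and 1 above, with sums of 16.1 to 21.7 and 22 to 44.1 CPM. The sums of 5 endothelial markers (1.78 to 5.92 CPM in TAC, 3.75 to 8.76 in DMSO) overlapped, as did those of the 6 photoreceptor markers (1.09 to 1.31 and 0.758 to 1.17). The 4 parietal epithelial markers summed to 676 to 771 CPM in TAC and 782 to 928 in DMSO. They did not go 1 way: 1 of the 4 had all TAC libraries above DMSO and 1 had all below. How many of all genes had such an order between TAC and DMSO was not counted. The numbers of markers in that order therefore have no share of all genes beside them. The part of the marker differences in the levels of SAMD11 and LINC02593 was not tested.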

How the data were processed

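Libraries of poly(A)-selected RNA carried in-line UMIs and ERCC spike-ins, per the labels' protocols. The submitters' processing notes name Salmon and GRCh38; versions, annotation release, use of strand and UMI collapsing are not given in the sources used here. The values deposited by the authors are expected counts per gene, estimated with Salmon per the submitters' processing notes and already whole numbers, with no normalization seen. Symbols matched 41987 of 62262 identifiers. Genes were kept by filterByExpr (minimum count 10) in edgeR 4.0.16 (R 4.3.3), scaled by TMM and fitted with the quasi-likelihood model. The model held group alone, used all 12 libraries and left 8 residual degrees of freedom. Adjusted p-values are Benjamini-Hochberg over 19784 genes, two-sided, with a threshold of 0.05. Levels are CPM; log2 CPM used a prior count of 2.

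The members, lists and motifs were chosen with earlier results of these data known. Named genes were the 6 members, the 8 genes with a mean log2 CPM of at least 0 most like SAMD11 over the 12 libraries, the tested genes within 500 kb that passed or else the 4 smallest p-values in TAC against DMSO, and from each list those that passed or else up to 3 with the smallest p-values; others are named for position or as stated. Alternatives were RLE size factors in edgeR, DESeq2 1.42.0, no filter, only the 2 groups compared, the replicate block and leaving out each library. A fit without the 4 libraries numbered 3 was chosen after seeing the data.

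The replicate numbers come from the labels. Deviations from group means of same-numbered libraries correlated at 0.3134, 0.1077 and 0.3774 for TAC with DMSO. They correlated at 0.1536, 0.1026 and 0.2198 for CSA with DMSO, and at 0.2324, 0.2483 and 0.5316 for TAC with VCS. The numbers were taken to pair these, though the pairing is weak. Differently numbered libraries reached 0.1125 (DMSO 1 with TAC 2) and 0.238 (TAC 1 with VCS 2), above a same-numbered pair. VCS with DMSO had 0.2803, 0.0975 and 0.4281 and was not taken as paired. Its lowest value, 0.0975, is close to the 0.1026 of CSA with DMSO, which was. These correlations therefore do not settle which comparisons the numbers pair. Sequences are from RefSeq on GRCh38.p14; all 6 members matched.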

Additional observations from a re-analysis of the deposited data

How the results depend on the processing

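The log2 differences of the 6 genes were recomputed 648 times under the alternatives, and 17 changed sign, all of them differences near 0 that were not called. Leaving out each library in turn, the value ran from -0.08 to 0.05 for KLHL17 and from -0.03 to 0.10 for PLEKHN1 in CSA against DMSO, and from -0.26 to 0.003 for KLHL17 in TAC against CSA. It ran from -0.25 to 0.10 for SAMD11 and from -0.33 to 0.09 for HES4 in VCS against CSA, and from -0.07 to 0.35 for KLHL17 and from -0.37 to 0.05 for HES4 in TAC against VCS. LINC02593 in CSA against DMSO ran from -0.05 to 0.21. Without the 4 libraries numbered 3, CSA against DMSO was 0.01 for KLHL17 and 0.03 for HES4, VCS against CSA was 0.02 for SAMD11, and VCS against DMSO was 0.13 for LINC02593. The cause of these was not tested.

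Numbers of genes called moved far more than the values. In the order CSA, TAC and VCS against DMSO, then TAC against CSA, VCS against CSA and TAC against VCS, no filter on low counts gave 86, 131, 69, 87, 70 and 101, DESeq2 gave 7, 34, 8, 51, 11 and 36, and the replicate block gave 6, 41, 0, 65, 6 and 41. The block changed no call of the 6 genes. The numbers of VCS with DMSO, TAC with CSA and VCS with CSA were not taken to pair. Each had a same-numbered correlation below all those of the comparisons taken as paired. Over all 18 same-numbered pairs the correlation of deviations was 0.0069 to 0.5316. With only the 2 groups compared, and so fewer residual degrees of freedom, TAC against DMSO and TAC against CSA had 1 gene called each, and VCS against DMSO and TAC against VCS had 0. Without the 4 libraries numbered 3, the numbers were 0 (CSA against DMSO), 3 (TAC against DMSO), 1 (TAC against CSA), 6 (VCS against CSA) and 9 (TAC against VCS). Under both of these, 0 of the 6 genes were called in the TAC comparisons. Leaving out 1 library at a time gave 0 to 2, 0 to 10, 0 to 8, 0 to 6, 0 to 7 and 0 to 12 genes called in the order above, and 0 to 2 of the 6 in each TAC comparison. DESeq2 gave no adjusted p for SAMD11 and LINC02593 in TAC against CSA. LINC02593 rests on 17 to 101 counts a library and SAMD11 on 41 to 195, which limits the precision of both.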
